A study of Mus musculus with 10 samples.

Results

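Interferon-stimulated genes were abundant in some mammary tumours of the series and scarce in others, and 5 interferon-high tumours are described here against 5 interferon-low tumours, which together make up all 10 tumours sequenced. The sides were chosen from measured values: a summed level of interferon-stimulated genes above or below 3000 CPM (counts scaled to a fixed library total). The levels of interferon genes are therefore a description with no test, and the question asked of the data was which genes outside the interferon programme went with it. The tumours came from separately numbered female FVB/N mice of genotype EIC/WT (EIC, 5 tumours) or 16IC/WT (16IC, 5 tumours). Every mouse received doxycycline at 2 mg/ml and tumours were frozen at end point. The labels do not spell out the transgenes behind EIC and 16IC, name the promoter that drives them or give ages, and all 10 tumours share the doxycycline. The interferon-high side held EIC 1, EIC 4, EIC 5, 16IC 1 and 16IC 4, so 3 EIC and 2 16IC tumours. The interferon-low side held EIC 2, EIC 3, 16IC 2, 16IC 3 and 16IC 5, so 2 EIC and 3 16IC tumours.

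Interferons are secreted proteins that cells release when they sense foreign or misplaced nucleic acid, or that lymphocytes release on activation. They signal through receptor-bound JAK kinases, and type I interferon leads to a transcription factor complex that binds a short repeated element in the promoters of its targets. Type II interferon is the stronger inducer of the immunity-related GTPases, the guanylate-binding proteins and the antigen presentation genes. In mammary tumours the programme can be carried by the tumour epithelium, by stromal cells and by leukocytes.

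Libraries held between 14813940 and 16947400 counts, and this total did not separate the sides (difference in means -741273 counts, p = 0.18, adjusted p = 0.72 over 4 library measures, exact two-sided permutation within genotype). Genes detected, the mitochondrial share and the share of the 10 most counted genes gave p-values of 0.36, 0.66 and 0.85 in the same exact permutation test. The luminal markers Epcam and Krt8 were present in every tumour, with Epcam between 1247 and 1904 CPM in interferon-high and between 1220 and 2092 CPM in interferon-low tumours. Skeletal muscle transcripts set EIC 2 apart, with a list sum of 2909 CPM against 1268 CPM or less elsewhere. These are bulk samples, so fewer cells of a type and less RNA per cell cannot be told apart.

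The sides did not form a clean gap with every list of interferon genes. Over a core list of 40 interferon-stimulated genes the interferon-high tumours summed to 4386 CPM in EIC 1, 7093 CPM in EIC 4, 4506 CPM in EIC 5, 11087 CPM in 16IC 1 and 3448 CPM in 16IC 4. The interferon-low tumours summed to 571 CPM in EIC 2, 1107 CPM in EIC 3, 1923 CPM in 16IC 2, 3556 CPM in 16IC 3 and 1958 CPM in 16IC 5. Within EIC the sides were far apart, but 16IC 3, on the low side, lay slightly above 16IC 4, on the high side, and 6 tumours exceeded 3000 CPM. With 30 antiviral effectors 8 tumours exceeded 3000 CPM, and the lowest interferon-high tumour (4141 CPM) lay below the highest interferon-low tumour (5707 CPM). The list behind the 3000 CPM of the rule is not given, so the sides were used as the rule names them, and the calls are also given with 16IC 3 and 16IC 4 exchanged or left out.

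**Figure D1:**
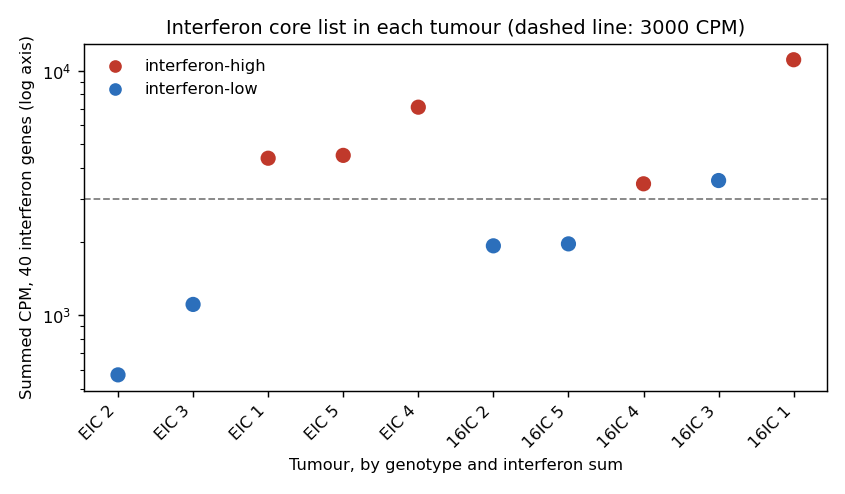
Summed CPM of the 40 core interferon genes (log axis) in each of the 10 tumours, ordered by sum within genotype; red points are interferon-high, blue points interferon-low, and the dashed line marks 3000 CPM. EIC tumours split widely (571 and 1107 against 4386 to 7093 CPM), while 16IC 3 and 16IC 4 sit next to each other at 3556 and 3448 CPM.

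Among 225 genes of the interferon programme in the table, 191 passed the filter on low counts. Of these 181 had a higher and 10 a lower fitted level in interferon-high tumours, with a median log2 difference of 1.35 against -0.03 over all 15841 genes tested. The median was 1.78 within EIC and 0.86 within 16IC. These values follow from how the sides were chosen and support nothing further.

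The ligands themselves were at or near 0. Ifnb1, the first type I interferon made on nucleic acid sensing, had no count in 5 libraries and at most 0.422 CPM. Ifng, the type II interferon of T and NK cells, had no count in 9 libraries, and Ifna4, Ifnl2 and Ifnl3 had none in 8 libraries each. Receptor chains were present on both sides: Ifnar1 lay between 68.9 and 86.9 CPM in interferon-high and between 72.3 and 90.8 CPM in interferon-low tumours. Of 12 interferon receptors and kinases tested, 8 were higher and 4 lower, with a median log2 difference of 0.06, and none passed the test. Of 19 upstream sensing genes tested, 13 were higher, with a median of 0.10 and none past the test. Tbk1, the kinase that activates IRF3, was separated completely at 47.6 to 77.3 CPM against 42.5 to 47.5 CPM, but its log2 difference was only 0.42 (edgeR adjusted p = 0.54).

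Antiviral effectors differed more within EIC than within 16IC in their median, and 4 of 30 separated the sides over all tumours, where 0.663% of all genes tested did so upwards. Ifit3 and Oas3, the members with the largest differences, were among these 4. In 16IC 1 and 16IC 4 Ifit3 stood at 198 and 44.8 CPM against 22.6 CPM or less in the low 16IC tumours, and Oas3 at 90.6 and 11.9 CPM against 10.96 CPM or less. Isg15, Ifit1 and the transcription factor gene Irf7 separated the sides within EIC and overlapped within 16IC. Isg15, a ubiquitin-like modifier, stood at 101 CPM in EIC 1, 245 CPM in EIC 4 and 124 CPM in EIC 5 against 6.24 CPM in EIC 2 and 9.23 CPM in EIC 3. In 16IC it was 93.5 CPM in 16IC 1 but only 30.3 CPM in 16IC 4, below the 47.5, 44.9 and 35.5 CPM of the interferon-low 16IC 2, 16IC 3 and 16IC 5. Ifit1, which binds viral RNA lacking a methylated cap, overlapped in 16IC in the same way, with 37.8 CPM in 16IC 4 and 61.5 CPM in 16IC 3. Irf7, the factor that amplifies type I interferon, stood at 129 CPM in 16IC 4 and 256 CPM in 16IC 3. Over 30 effectors the median log2 difference was 2.96 within EIC and 0.86 within 16IC. Sensors had medians of 1.74 within EIC over 11 genes and 0.33 within 16IC over 10 genes.

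Interferon-inducible GTPases, which attack the vacuoles of intracellular pathogens, separated the sides in both genotypes. Iigp1 stood at 306 CPM in EIC 1, 440 CPM in EIC 4, 362 CPM in EIC 5, 2814 CPM in 16IC 1 and 667 CPM in 16IC 4. The interferon-low tumours held 4.40 CPM in EIC 2, 37.0 CPM in EIC 3, 151 CPM in 16IC 2, 148 CPM in 16IC 3 and 136 CPM in 16IC 5, all below the interferon-high tumours. All 16 GTPase genes were higher, 12 of them without overlap of the sides (0.663% of all genes tested), with medians of 2.74 within EIC and 3.06 within 16IC. Class I presentation, which displays peptides to CD8 T cells, was likewise similar in both genotypes, with medians of 1.51 and 1.60 over 22 genes. H2-D1, a class I heavy chain, lay between 2804 and 7027 CPM in interferon-high and between 365 and 1713 CPM in interferon-low tumours. B2m, the class I light chain, was 8326 CPM in 16IC 1 and 3172 CPM in 16IC 4 against 541, 1678 and 582 CPM in 16IC 2, 16IC 3 and 16IC 5. An antisense gene covers all of B2m, so its reads cannot be assigned with certainty. The 9 class II genes tested were all higher, with a median of 1.01, but none separated the sides.

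**Figure D2:**
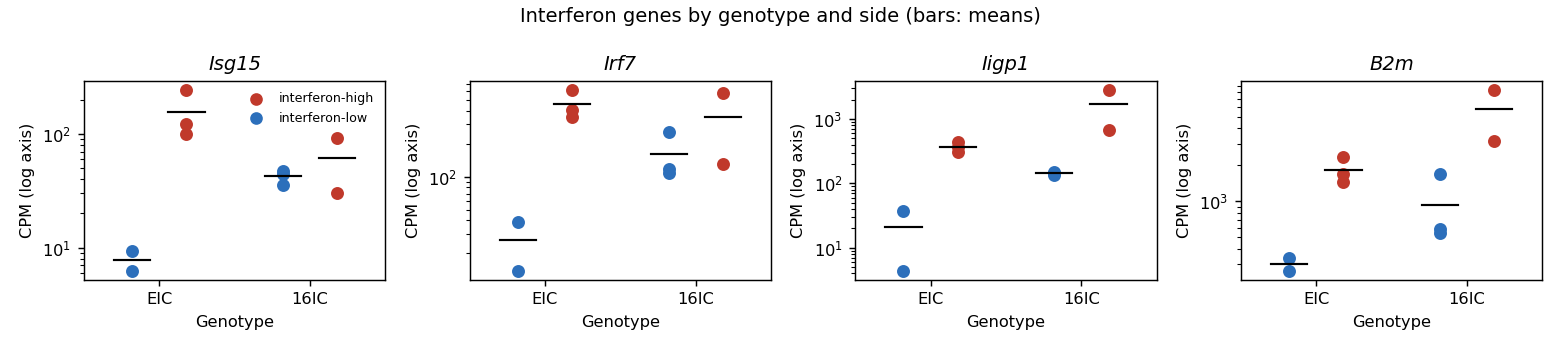
CPM (log axis) of Isg15, Irf7, Iigp1 and B2m in each tumour by genotype; red points are interferon-high, blue points interferon-low and black bars are group means. Iigp1 separates the sides in both genotypes, while Isg15 in 16IC 4 (30.3 CPM) lies below every interferon-low 16IC tumour.

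Promoter sequence of programme members was examined because the grouping rests on genes with a shared element. A motif of GAAA, any 2 bases and GAAA again (TTTC, any 2 bases and TTTC on the opposite strand) covers the core of the interferon-stimulated response element, and was searched on both strands from 250 bases before to 50 bases after the RefSeq start site (GRCm38.p6). It occurred in 1079 of 27025 promoters (3.99%), in 18 of 29 core interferon genes with a promoter in the table (62.1%) and in 9 of 10 GTPases. Class I presentation genes held it in 5 of 19 promoters and class II genes in none of 7. Of the 12 genes outside the programme with the smallest p in each direction, 8 of the higher and 10 of the lower ones had a promoter, and these letters were in none of those windows. At a share of 3.99%, so few promoters can hold none without differing from other genes. Genes outside the programme without overlap of the sides held it in 2 of 50 promoters when higher (4%) and 2 of 49 when lower (4.08%). The 4 windows below show the element in 2 effectors whose levels separated the sides in EIC only (Isg15 and Ifit1) and in 2 GTPases. Capitals mark the motif, and overlapping matches in Isg15 form 1 capital run. Isg15 is shown on the minus strand from chr4:156200850-156200921, Ifit1 on the plus strand from chr19:34640760-34640838, Igtp on the plus strand from chr11:58199497-58199556 and Gbp2 on the plus strand from chr3:142620579-142620638.
Isg15: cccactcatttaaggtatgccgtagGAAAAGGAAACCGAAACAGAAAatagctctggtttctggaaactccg
Ifit1: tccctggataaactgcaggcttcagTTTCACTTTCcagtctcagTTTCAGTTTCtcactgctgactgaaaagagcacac
Igtp: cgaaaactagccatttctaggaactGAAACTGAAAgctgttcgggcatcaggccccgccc
Gbp2: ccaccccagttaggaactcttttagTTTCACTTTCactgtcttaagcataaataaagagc
A match describes the letters and is not a measured binding site.

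Outside the interferon programme 15650 genes were tested with edgeR's quasi-likelihood test on counts, with genotype as a covariate and Benjamini-Hochberg adjustment over all 15841 genes. At an adjusted p under 0.05, 1 gene (Pigr) rose and 1 gene (Stbd1) fell with the interferon level, each 0.00639% of the genes tested. With programme genes included, 0.0505% of all genes passed as higher and 0.00631% as lower. At an unadjusted p under 0.05 there were 462 higher genes (2.95%) and 559 lower genes (3.57%). Every interferon-high tumour lay above every interferon-low tumour for 61 of these genes (0.39%) and below for 70 genes (0.447%). P-values measure the spread between tumours of different mice.

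Pigr, the receptor that carries IgA and IgM across epithelium into milk and mucus, rose with the interferon level. Pigr is a known target of interferon gamma, so its call is not free of the interferon programme that set the sides. It lies at chr1:130826684-130852249 on the plus strand (GRCm38). Its level was 78.3 CPM in EIC 1, 37.4 CPM in EIC 4 and 68.5 CPM in EIC 5 against 10.5 CPM in EIC 2 and 11.4 CPM in EIC 3. In 16IC it was 509.8 CPM in 16IC 1 and 151 CPM in 16IC 4 against 47.0, 51.4 and 44.0 CPM in 16IC 2, 16IC 3 and 16IC 5. The sides separated within each genotype and overlapped only between genotypes. The log2 difference was 2.65 ± 0.34 (SE, edgeR adjusted p = 0.049), with 2.50 within EIC and 2.79 within 16IC.

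Stbd1, a glycogen-binding protein that tethers glycogen to membranes, fell by 1.53 on the log2 scale (SE 0.15, edgeR adjusted p = 0.023). It lies at chr5:92603041-92606579 on the plus strand. Its level was 25.5 CPM in EIC 1, 28.2 CPM in EIC 4 and 28.9 CPM in EIC 5 against 70.7 CPM in EIC 2 and 79.8 CPM in EIC 3. In 16IC it was 6.79 CPM in 16IC 1 and 8.48 CPM in 16IC 4 against 27.1, 18.9 and 24.01 CPM in 16IC 2, 16IC 3 and 16IC 5. As for Pigr, the sides separated within each genotype. Ccdc158, its neighbour on the minus strand (chr5:92607954-92675271), was also lower, by a log2 difference of -3.02 (edgeR adjusted p = 0.16), but stood at 0.620 CPM in 16IC 4 and 0.610 CPM in 16IC 3.

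Both calls depended on the genotype term and on the placing of 16IC 3 and 16IC 4. Without the genotype covariate the edgeR adjusted p was 0.87 for Stbd1 and 0.71 for Pigr. With 16IC 3 and 16IC 4 exchanged, an alternative chosen after seeing the data, it was 0.84 and 0.67. With both of these tumours left out 8 higher and 2 lower genes passed, Pigr and Stbd1 among them. The others were AW112010, Ddx60, Gm4841, Gm5431, Gm5970, Slc2a6, Sod3 and Ccdc158. Of these, Gm5970 overlaps the programme gene Gm4951. With the interferon score as a continuous term in place of the sides, Stbd1 had an edgeR adjusted p of 0.16 and Pigr of 0.10. That fit called 12 genes, 10 higher and 2 lower, and Slc2a6, Enpp4, Klrk1, Lgals9, Ddx60, Il18bp and Olfr56 were among them. The remaining ones were AW112010, Gm42528, Hsh2d, Stac2 and Zc3hav1. Ddx60 and Il18bp are known interferon targets that the lists missed, and others of the genes named here may be interferon targets too. Calls added by such settings are therefore not free of the interferon programme that set the sides. Leaving out single tumours kept the Stbd1 call without EIC 2, 16IC 3 or 16IC 4 and lost it without any of the other 7; the Pigr call was kept only without 16IC 4. The differences themselves stayed between -1.58 and -1.46 for Stbd1 and between 2.18 and 2.88 for Pigr. With DESeq2 in place of edgeR 140 genes passed, 91 higher and 49 lower.

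The next genes by p-value did not pass the edgeR test and are given as values. Slc2a6, a lysosomal sugar transporter (chr2:27021363-27027998, minus strand), lay between 10.5 and 145 CPM in interferon-high and between 1.31 and 6.09 CPM in interferon-low tumours, with no overlap (log2 difference 4.12 ± 0.68 SE, edgeR adjusted p = 0.089). Slc2a9, a urate transporter, had a difference of 2.60 and an adjusted p of 0.10. Enpp4, an ectoenzyme that cleaves nucleotide substrates (chr17:44096308-44105809, minus strand), was 83.3, 75.8 and 87.5 CPM in the high EIC tumours against 5.65 and 12.6 CPM in the low ones. In 16IC it stood at 68.1 and 46.8 CPM against 25.3, 25.2 and 23.8 CPM, so the sides did not overlap in any genotype (log2 difference 2.18 ± 0.42 SE, edgeR adjusted p = 0.16). Its difference was 3.18 within EIC and 1.21 within 16IC, and the interaction with genotype had an edgeR adjusted p of 0.096.

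Saa1, an acute phase apolipoprotein, lay between 2.05 and 29.6 CPM in interferon-high tumours and at 0.595 CPM or less in interferon-low ones. This is a small number of reads (edgeR adjusted p = 0.10). Saa1 passed the filter on low counts mainly through the interferon-high side, so its direction is partly fixed by the filter and supports nothing further. Csn1s2b, a casein, and Sftpd, the collectin surfactant protein D, were most abundant in 16IC 1 and 16IC 4. Csn1s2b stood at 358.5 and 91.4 CPM in 16IC 1 and 16IC 4 and at 4.53 CPM or less in every other tumour. Sftpd stood at 388 and 172 CPM in the same tumours against 10.2 CPM or less in the low 16IC tumours, and at 20.5, 8.09 and 20.2 CPM against 4.58 and 1.07 CPM in EIC. The differences of Csn1s2b and Sftpd were 5.41 and 3.99, with edgeR adjusted p-values of 0.077 and 0.10. Il2rb, the IL-2 and IL-15 receptor beta chain of NK and T cells, had a difference of 2.59 at 0.996 to 10.4 CPM against 0.357 to 1.59 CPM. Itgae, the CD103 integrin of epithelium-resident lymphocytes, had a difference of 1.93 at similarly low levels. The smaller differences of Slc30a4, a zinc transporter (0.84), and Gpd1l (0.87) came from higher counts. Olfr56 was also among the 12, but overlaps the interferon gene Ifi47 on its strand and is reported as uncertain.

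Among the lower genes, Rbp7, a retinoid-binding protein of adipose endothelium (chr4:149449687-149454978, minus strand), did not overlap. It was 15.0, 38.6 and 39.4 CPM in the high EIC tumours against 251 and 92.8 CPM in the low ones. In 16IC it was 23.99 and 22.6 CPM against 134, 82.4 and 58.4 CPM (log2 difference -2.22 ± 0.38 SE, edgeR adjusted p = 0.10). Cttnbp2nl showed a smaller difference (-0.67) with little spread, at 62.4 to 102 CPM against 106 to 150 CPM. Ass1, the argininosuccinate synthase of arginine synthesis, had a difference of -1.05, with 59.8 to 90.9 CPM against 116 to 219 CPM. Sptb, erythroid beta spectrin, and Sox6, a transcription factor, differed by -1.32 and -1.92, also without overlap. Hbegf, an EGF receptor ligand, was 20.9, 35.03 and 38.6 CPM against 74.2 and 52.0 CPM in EIC, and in 16IC 6.79 and 8.13 CPM against 16.7, 15.3 and 11.9 CPM. Its log2 difference was -0.99 ± 0.21 (SE, edgeR adjusted p = 0.18). Ggta1, the alpha-galactosyltransferase, and Slc35f1 differed by -1.07 and -1.69. Cntnap1 differed by -1.40. Gfap differed by -1.67 at 4.87 CPM or less and lies wholly within an antisense gene.

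**Figure D3:**
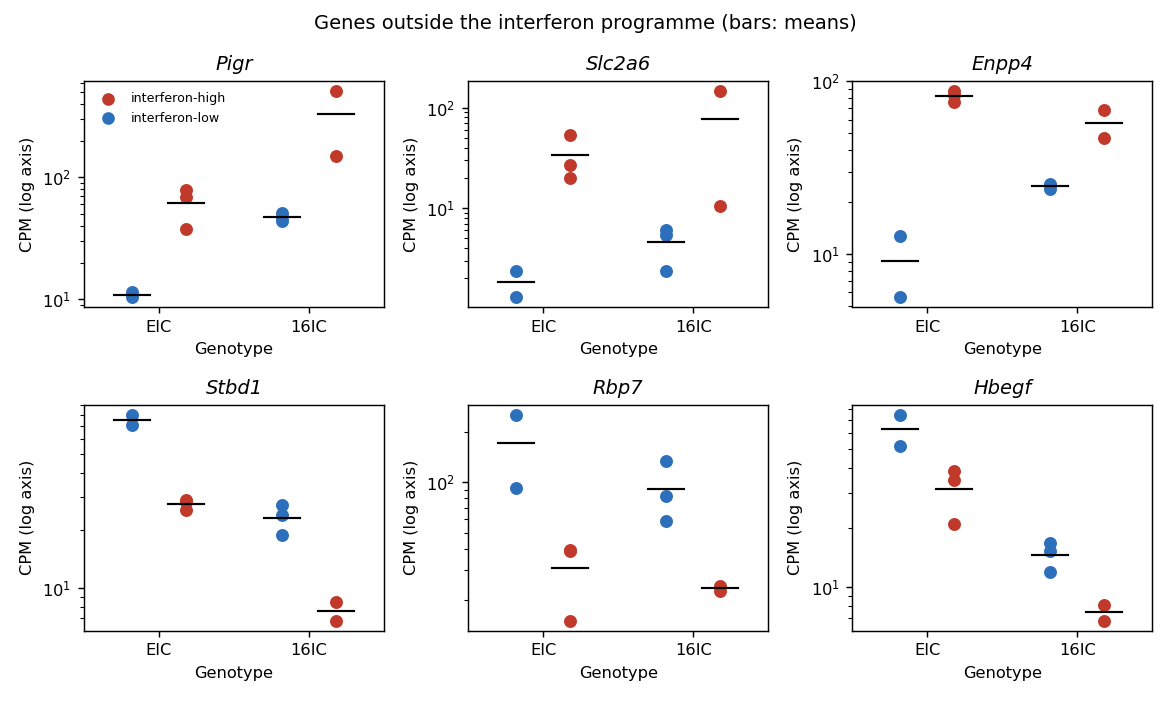
CPM (log axis) of Pigr, Slc2a6, Enpp4, Stbd1, Rbp7 and Hbegf in each tumour by genotype; red points are interferon-high, blue points interferon-low and black bars are group means. In all 6 panels the sides separate within EIC and within 16IC; of these genes Pigr and Stbd1 passed the edgeR test.

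**Figure D4:**
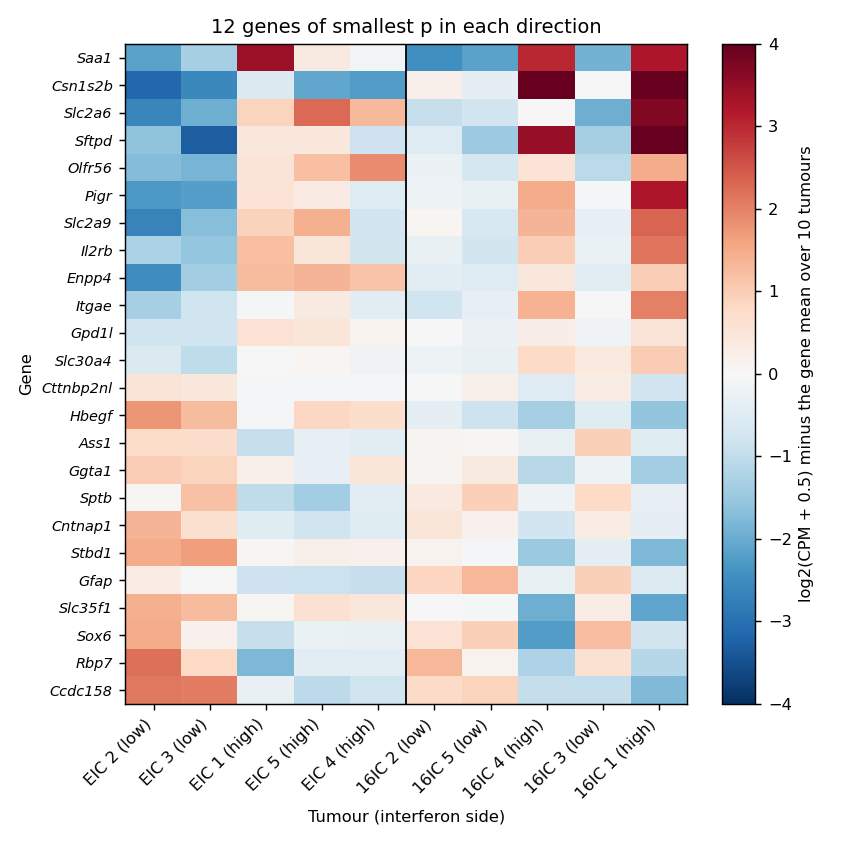
log2(CPM + 0.5) of the 12 genes with the smallest p in each direction outside the programme, minus each gene's mean over the 10 tumours; columns are tumours ordered by interferon sum within genotype, with the side in brackets, and the black line separates EIC from 16IC. Red is above and blue below the gene's mean, and the color scale ends at -4 and 4, so Csn1s2b in 16IC 1 and 16IC 4 and Sftpd in 16IC 1 lie beyond its end.

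Lists of genes for other pathways and cell types were compared as counts and medians, beside the median of -0.03 outside the programme. Of the 15650 genes tested there, 7169 were higher and 8481 lower. None of their members passed the edgeR test. Milk genes had the highest median of the lists outside the programme with at least 10 genes tested: 14 of 15 were higher, with a median of 1.84, 2.89 within EIC and 1.22 within 16IC. Btn1a1, the butyrophilin of milk fat globules, was 422, 14.8 and 227 CPM against 6.30 and 26.7 CPM in EIC and 1584 and 606 CPM against 190, 81.6 and 102 CPM in 16IC. Summed over the list, EIC 4 (11166 CPM) and 16IC 4 (25985 CPM) lay inside the interferon-low range of 7316 to 29532 CPM. Elf5, the factor of alveolar differentiation, had a difference of 0.93 (edgeR adjusted p = 0.48). Acly, which supplies acetyl-CoA for lipid synthesis, lay between 285 and 1072 CPM in interferon-high and between 148 and 274 CPM in interferon-low tumours (edgeR adjusted p = 0.33). Scd1, a desaturase, was high in 16IC 1 and 16IC 4 at 11701 and 5227 CPM against 1629 CPM or less in all others.

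Of 13 NK and cytotoxic genes in the table, 5 passed the filter on low counts. All 5 were higher, with a median of 2.59 (2.78 within EIC over 3 genes, 2.06 within 16IC), but from low counts. A scarce gene can pass the filter through the interferon-high side alone, so this direction is partly fixed by the filter and supports nothing further. The NK list summed to 2.55 to 40.2 CPM in interferon-high and 1.01 to 7.63 CPM in interferon-low tumours. The defining markers Ncr1 and Prf1 had no count in 2 libraries each. Klrk1, the activating receptor NKG2D, lay between 0.896 and 2.96 CPM against 0.549 CPM or less, and so passed the filter only through interferon-high tumours. The T cell list summed to 8.34 to 32.4 CPM and 8.63 to 16.0 CPM, with the T cell receptor component Cd3e at 1.45 CPM or less. The part of these cells in the differences above was not tested. Cd274, the checkpoint ligand PD-L1 and a known interferon target, had a difference of 2.09 (edgeR adjusted p = 0.26), with 40.8 CPM in 16IC 1 against 4.70 to 8.71 CPM in the other interferon-high tumours. Socs1, the feedback inhibitor of JAK signalling, had a difference of 1.33 (edgeR adjusted p = 0.37).

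Hypoxia and glycolysis genes were lower in interferon-high tumours for all 18 members, with a median of -0.80, -1.54 within EIC and -0.17 within 16IC. Within 16IC 6 of the 18 were higher. Summed over the list, EIC 3 (13786 CPM) and 16IC 3 (12622 CPM) stood highest, and the interferon-low 16IC 5 (4044 CPM) stood lowest. Egln3, an oxygen-sensing hydroxylase, reached 1738 CPM in EIC 3 with 1523 CPM in 16IC 3, both interferon-low, and lay between 84.0 and 465 CPM in the interferon-high tumours, while EIC 2, 16IC 2 and 16IC 5 lay in the interferon-high range (edgeR adjusted p = 0.62). Targets of p53 were lower for 17 of 18 members with a median of -0.32. ERBB receptors and ligands were lower for 14 of 18 members with a median of -0.46. Within 16IC 8 of 18 p53 targets and 7 of 17 ERBB genes were higher. Erbb2 itself differed by -0.03 (edgeR adjusted p = 0.99), with the sign changing under other settings, and lay between 107 and 158 CPM over all tumours. Enpp1, which degrades the nucleotide second messenger cGAMP, differed by -0.68 (edgeR adjusted p = 0.81), with 551 CPM in EIC 2 and 81.0 to 285 CPM in the interferon-high tumours.

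Several stromal and leukocyte lists had medians of opposite sign in the 2 genotypes, while endothelial genes (0.50 within EIC, 0.20 within 16IC) did not. Of 22 T cell genes only 7 passed the filter, at low counts. Their medians were 2.11 within EIC over 7 genes and 0.13 within 16IC over 5 genes. As for the NK genes, the filter can fix part of this direction, so the T cell medians support nothing further. All 23 macrophage and monocyte genes tested were higher within EIC (median 0.84) but only 2 were within 16IC (median -0.51). The list summed to 2392, 1724 and 2290 CPM in the high EIC tumours against 1028 and 1020 CPM, and to 1110 and 756 CPM in the high 16IC tumours against 2265, 737 and 2270 CPM. Thus 16IC 3 resembled the interferon-high 16IC tumours in macrophage level, and 16IC 2 and 16IC 5 did not. Fibroblast and matrix genes were higher for 19 of 21 within EIC and 4 of 21 within 16IC, adipocyte genes for 13 and 3 of 13, and heat shock genes for 13 and 0 of 14. Skeletal muscle genes ran the other way, with 0 of 13 higher within EIC, where EIC 2 held the most, and 13 of 13 within 16IC.

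These contrasts between genotypes were not called gene by gene. The interaction of side and genotype passed for 0 of 16559 genes (0%) with edgeR (smallest adjusted p 0.063), while 3150 genes had an unadjusted p under 0.05 and DESeq2 called 1321. Without 16IC 3 edgeR called 2413 genes. Fitted separately, EIC gave 64 calls outside the programme, 19 higher and 45 lower, and 16IC gave none (smallest adjusted p 0.15). The general leukocyte list summed to 788 to 861 CPM in interferon-high and 517 to 827 CPM in interferon-low tumours, with 16 of 17 members higher (median 0.33). Within EIC 15 of 17 were higher (median 1.02) and within 16IC 4 of 17 (median -0.36). Ptprc, the pan-leukocyte antigen CD45, was above 0 in every library. The list sum did not follow Ptprc from tumour to tumour. Ptprc was highest in EIC 1 (42.6 CPM), where the list summed to only 788 CPM. For 16IC 3 the list sum was 827 CPM although Ptprc stood at 10.3 CPM. With this leukocyte level as a covariate the edgeR adjusted p was 0.027 for Stbd1 and 0.072 for Pigr. Because the sum is a poor measure of leukocyte content, whether the 2 calls depend on that content was not tested.

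**Figure D5:**
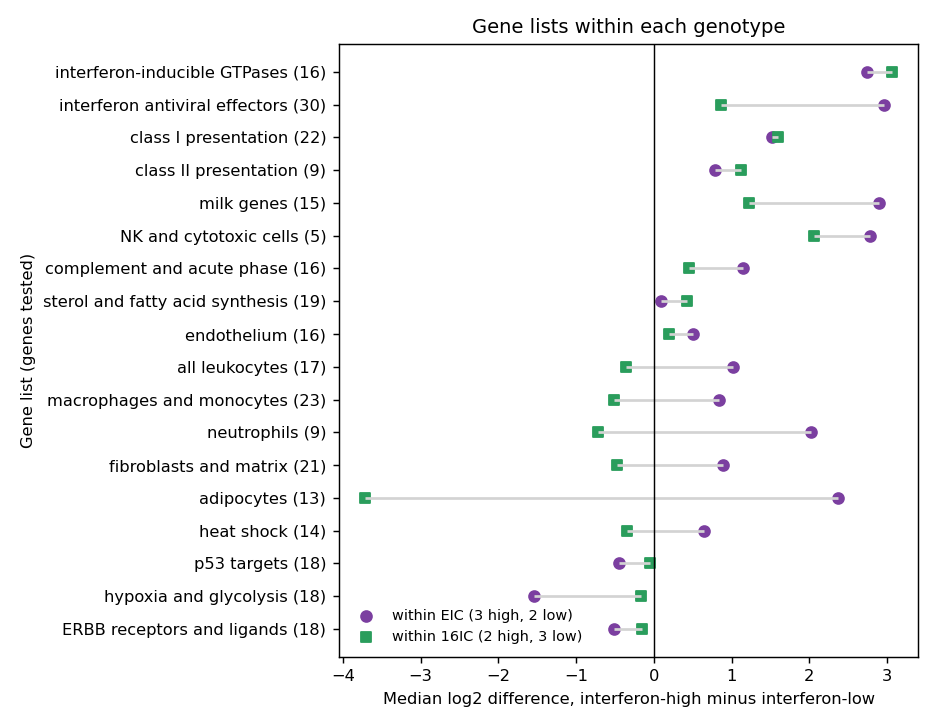
Median log2 difference between interferon-high and interferon-low tumours for 18 gene lists (number of genes tested over all tumours in brackets), within EIC (purple circles, 3 against 2 tumours) and within 16IC (green squares, 2 against 3 tumours). GTPases, class I genes, milk genes and NK genes lie to the right in both genotypes, while macrophage, neutrophil, fibroblast, adipocyte and heat shock medians lie on opposite sides of 0. The NK medians rest on at most 5 genes of low count, of which Klrk1 passed the filter only through interferon-high tumours.

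Outside the programme lists, the genes whose log2 level followed the mean log2 level of the core list most closely over the 10 tumours were Ddx60 (Pearson r 0.97), Lgals9 (0.95), Enpp4 (0.94), Il18bp (0.94), Mitd1 (0.93) and Btg3 (0.92). Ddx60, a helicase that acts with the RNA sensors, and Il18bp, the decoy receptor of IL-18, are known interferon targets that were not in the lists. Lgals9 encodes galectin-9, and Btg3 an antiproliferative protein. Whether Lgals9 and the other genes here are interferon targets as well was not examined. The most negative were Pick1 (-0.91), Map2k7, Lncppara and Ccdc158 (each -0.90), Tspyl2 (-0.90) and Scrn2 (-0.90). Genes on the same strand cover 98.9% of Pick1, 98.6% of Map2k7 and 26.1% of Lncppara. An antisense gene covers 60.9% of Btg3, so the reads of all of these are uncertain. These values share the libraries, their depth and the genotype difference, and serve as a description. Without EIC 2 and EIC 3, which lie farthest from the median score, r was 0.94 for Ddx60, 0.82 for Enpp4 and -0.86 for Pick1. Lgals9 stood at 237, 361 and 361 CPM against 21.9 and 73.1 CPM in EIC, but at 97.5 CPM in 16IC 4, below the interferon-low 16IC tumours (134 to 152 CPM).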

How the data were processed

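RNA from 10 mammary tumours was sequenced by the authors. The labels' protocols name an RNeasy Mini extraction and the NEBNext Ultra II library kit. The submitters' processing notes list STAR, HTSeq, Trimmomatic, limma and edgeR, and the mm10 (GRCm38) genome. The annotation release and strand setting of the counting are unknown, not given in the sources used here. Genes that overlap others are therefore uncertain. The deposited table gives raw counts for 26063 genes. It also holds the authors' normalized signal, FPKM per library, and the authors' log2 fold change and p-values between genotypes, which were not used for tests.

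Counts were analysed with edgeR 4.0.16 in R 4.3.3 (TMM scaling, filterByExpr with a minimum count of 10, robust quasi-likelihood fit on genotype and side). Adjusted p-values are Benjamini-Hochberg, with a threshold of 0.05. The filter kept 15841 genes with 99.9% of counts, and the median biological coefficient of variation was 35.0%. The most alike libraries (16IC 2 and 16IC 5, Spearman rho 0.988) differed by more than counting noise. On simulated data for this comparison over 15841 genes, 84 of 100 genes changed 4-fold and 94 of 100 changed 16-fold were recovered, with 6 false calls. The simulated counts held no genotype difference and no outlying tumour, and every tumour lay on its true side. These shares therefore do not measure recovery in the real data. There, Saa1, Csn1s2b and Slc2a6 did not pass at log2 differences of 6.19, 5.41 and 4.12. Library measures were compared over the 100 arrangements within genotype.

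The sides, members and gene lists were chosen with earlier results of these data known. Genes named are the 3 markers, Enpp1 and Erbb2; the programme's 2 most abundant and 2 most different members per list; the calls outside it with a mean log2 CPM of at least 1 and no predicted-gene name, or the 12 smallest p in a direction; 2 members by p of each list described; and the 6 highest and lowest correlations with the interferon score. Ligands, receptors and other marker genes were taken from fixed marker lists, and Igtp and Gbp2 were chosen for their promoters. Alternatives used DESeq2 1.42.0, limma 3.58.1, other scalings, filters and covariates, single genotypes and left-out tumours. Promoters are from RefSeq (GRCm38.p6).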

Additional observations from a re-analysis of the deposited data

Results flagged for a closer look

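In 9 of 104 groups of 5 tumours examined, the highest tumour stood apart from its group by more than Dixon's critical value of 0.71 for the gap over the range. For normally distributed values of a single population chance gives about 1 group in 20. These groups hold CPM without logarithm and mix both genotypes, so that rate need not hold for them. In 16IC 1, the highest interferon-high tumour, Pigr stood at 509.8 CPM, Csn1s2b at 358.5 CPM, Cd274 at 40.8 CPM and Klrk1 at 2.96 CPM. Among interferon-low tumours EIC 2 stood apart for Enpp1 (551 CPM), for Gapdh (405.8 CPM) and for the summed skeletal muscle list (2909 CPM). EIC 3 stood apart for Phlda3, a p53 target (78.9 CPM), and 16IC 3 for Cd274 (6.96 CPM). Gapdh has many near-identical copies in the genome, so its counts are uncertain.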

How the results depend on the processing

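Over 44 genes outside the programme, 973 log2 differences under other settings kept their direction and side of the threshold, 48 passed it, 27 no longer passed it and 5 reversed. All 5 reversals were of Erbb2: 0.0510 with limma voom, 0.0839 in 16IC alone, 0.136 without EIC 2 and 16IC 3, and a range of -0.0923 to 0.0961 with single tumours left out. Outside the programme edgeR called 1 higher and 1 lower gene. Other settings gave 2 higher genes with total count scaling or with no filter; 91 higher and 49 lower with DESeq2; 5 higher with limma voom; 0 and 0 without the genotype covariate; 10 and 2 with the interferon score as a continuous term; 3 and 3 with the leukocyte covariate; 19 and 45 in EIC alone; and 0 and 0 in 16IC alone. Settings chosen after seeing the data gave 0 and 0 with 16IC 3 and 16IC 4 exchanged, 8 and 2 without both, and 0 and 2 without EIC 2 and 16IC 3. Total count scaling and no filter each added Gm5970, which overlaps the programme gene Gm4951. Leaving out single tumours gave 0 to 9 higher genes and 0 to 2 lower genes. The interaction count was 0, against 1321 with DESeq2 and 0 to 2413 with single tumours left out (2413 without 16IC 3, 27 without EIC 3). With single tumours left out the difference in mitochondrial share ranged from -0.199 to 0.0354 percentage points and that in the share of the 10 most counted genes from -0.503 to 0.790. The cause of these changes was not tested. No paired analysis was possible because the tumour numbers follow sample order and pair nothing. With 5 tumours a side and low counts for NK and T cell genes, differences in these genes could be missed.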
